A study of Mus musculus with 20 samples.

Results

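The Trim genes encode tripartite motif proteins, and they were followed in mouse blood RNA through 66 genes of the 31093 gene names on the array. Members were the genes whose name on the array is Trim followed by a number. The array carried 97 probes for them, with several probes for 25 genes, and each gene was represented by the probe with the highest mean log2 intensity over all arrays. No measured difference between groups was used to choose the members. All 66 names were found in the RefSeq gene table of the mouse assembly GRCm38.p6.

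Blood was taken by cardiac puncture 24 h after whole-body X-rays or sham exposure, and its RNA, with globin transcripts reduced, was labelled with the dye Cy3 and hybridized to 20 single-colour Agilent arrays, listed as 1 per mouse. The 4 groups of 5 arrays were mice labelled WT at 0 Gy (C57BL/6, sham), WT at 7 Gy, Il10-/- at 0 Gy (B6.129P2-Il10tm1Cgn/J, sham) and Il10-/- at 7 Gy. All were male littermates of 8 to 10 weeks from heterozygous parents, so dose and the interleukin-10 allele separate the groups. The comparisons address how blood transcripts respond to radiation, and whether an inflammation-prone genotype alters that response.

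Proteins of this family typically, though not always, hold a RING domain, B-boxes and a coiled coil. Most act as ubiquitin ligases that mark other proteins for breakdown or for signaling. Many are induced by interferon and restrict viruses or tune innate immune signaling, while others act in red cell maturation, muscle upkeep, neurons, chromatin silencing or control of p53. In the mouse, genes related to Trim5 form a cluster on chromosome 7 that has expanded by duplication.

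Several properties of the arrays bear on every value below. The Il10 probe was well above background on 10 of 10 arrays of mice labelled Il10-/- and on 0 of 10 arrays labelled WT, with mean log2 intensities of 6.26 ± 0.25 and 6.37 ± 0.54 against 2.26 ± 0.89 and 1.86 ± 0.54 (SD, n = 5 each). This is the reverse of what loss of the Il10 transcript in mice labelled Il10-/- would give. Whether the allele is still transcribed, and whether the probe lies in its altered part, is not given in the sources used here. Each genotype direction is therefore given as labelled. Neutrophil markers, another measure that separated the genotypes, had a mean level of 10.86 to 12.78 on the arrays labelled Il10-/- and 9.51 to 10.59 on those labelled WT. Replicates 1 and 2 differed less from each other in every group (robust SD of 0.246 to 0.355 on the log2 scale) than the 36 other pairs within groups (0.446 to 1.48). Whether they are repeat arrays of 1 mouse was not tested, and if so each group would hold 4 mice and the n, errors and p-values below would change. With these replicates averaged, the comparison of doses called 2 Trim genes in the WT mice and 3 in the Il10-/- mice. The share of spots well above background had a median of 50.5% and was lowest, at 29.9%, in WT 0 Gy replicate 5. Liver marker genes averaged 4.75 to 5.82 in WT 0 Gy and 6.78 to 14.7 in WT 7 Gy, while in both Il10-/- groups they ranged from 5.49 to 12.9 (log2), and their part in the results was not tested.

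Values are log2 intensities scaled so that each array has a median distance of 0 from a common reference array. Levels of different genes were not compared, because probes differ in brightness. In whole blood, fewer cells of a type and less RNA per cell cannot be told apart.

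Of the 66 Trim genes, 17 were well above background on all 20 arrays, 33 on some arrays and 16 on none. Genes seen on every array included Trim28, the corepressor of zinc finger proteins, Trim21, the antibody receptor of the cytosol, Trim25, a ligase that activates the RNA sensor RIG-I, and Trim26, Trim27 and Trim56. The 16 genes never well above background were Trim6, Trim17, Trim29, Trim30e-ps1, Trim31, Trim36, Trim40, Trim45, Trim50, Trim52, Trim55, Trim60, Trim61, Trim66, Trim67 and Trim75. Trim71, a stem cell regulator of the NHL group, Trim80 and Trim15 were seen on 1 array each, which for Trim15 was WT 0 Gy replicate 5.

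**Figure D1:**
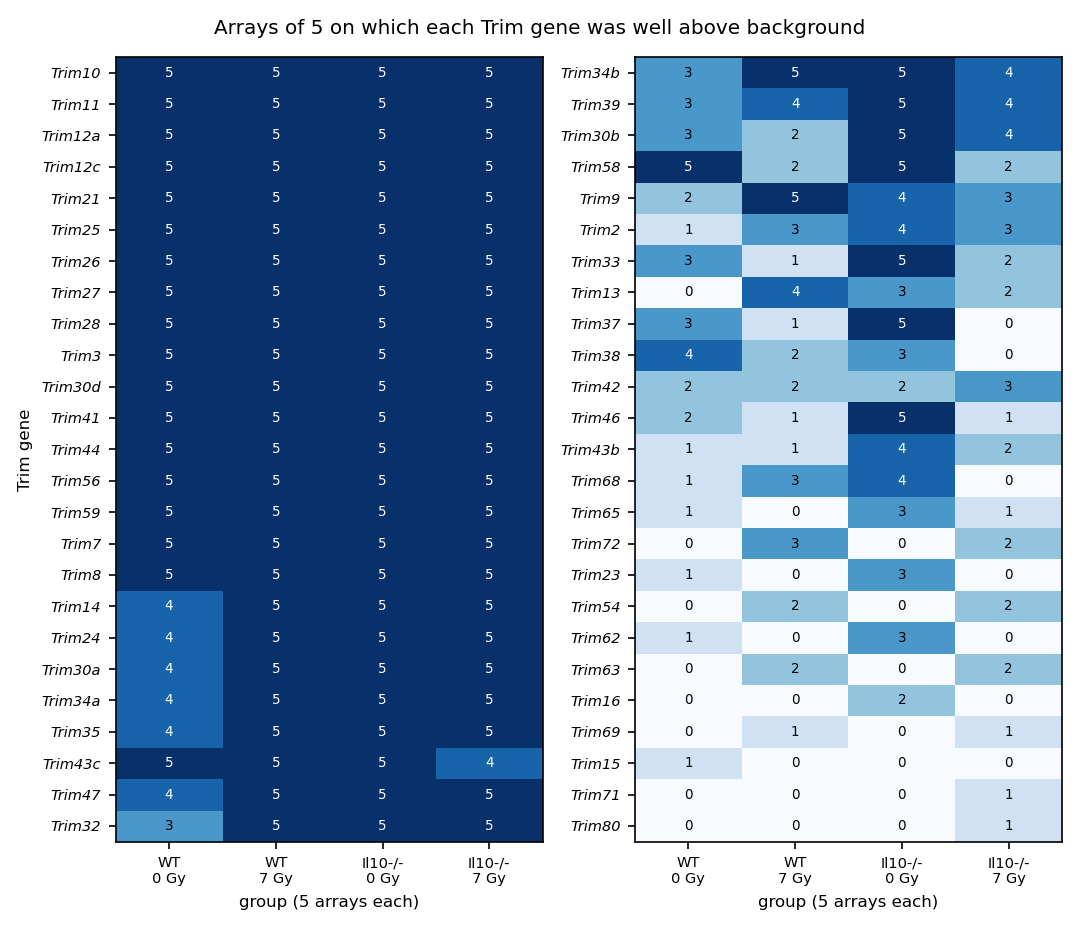
Each cell gives the number of arrays, of 5 per group, on which a Trim gene was well above background, for the 50 Trim genes seen on at least 1 array. The first 17 rows are at 5 in every group, Trim58 goes from 5 to 2 with irradiation in both genotypes, and Trim54, Trim63 and Trim72 are at 0 in both unirradiated groups.

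For testing, 47 members passed the background filter and 31 also varied by 1.5-fold or more from their median on at least 20% of the arrays. The second filter keeps genes that differ between some arrays, so the 31 are not all members and their counts are descriptive. Calls needed an unadjusted p under 0.001 and a false discovery rate (Benjamini-Hochberg) under 10% from limma over all 16503 features tested.

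In mice labelled WT, 3 of the 31 tested Trim genes were called after 7 Gy, all lower (Trim10, Trim58 and Trim59), where 11.1% of all features were called, 6.76% higher and 4.35% lower. In mice labelled Il10-/-, 5 of 31 were called, where 11.3% of all features were called, 5.70% higher and 5.59% lower. Trim10 and Trim59 were lower and Trim30a, Trim30d and Trim47 higher. Scaling each array to its own median gave 1 higher and 2 lower in mice labelled WT, and 1 higher and 3 lower in mice labelled Il10-/-, as did the 75th percentile in the latter. At an unadjusted p below 0.05, 18 and 19 of the 31 passed, beside 38.2% and 37.1% of all features. Doses without overlapping arrays, mentioned for single genes below, were found for 14.8% (higher) and 8.52% (lower) of all features in mice labelled WT, and for 11.2% and 9.31% in mice labelled Il10-/-. No such share is given for counts of slides, which are descriptive. Without the 2 irradiated arrays of a genotype with the highest heart muscle marker level (replicates 1 and 2), an alternative chosen after the data were seen, 0 Trim genes were called in mice labelled WT and 5 in mice labelled Il10-/-. These 5 are not the same set as above, because Trim59 was not called. The fits also held fewer irradiated arrays, which alone makes calls harder to reach.

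**Figure D2:**
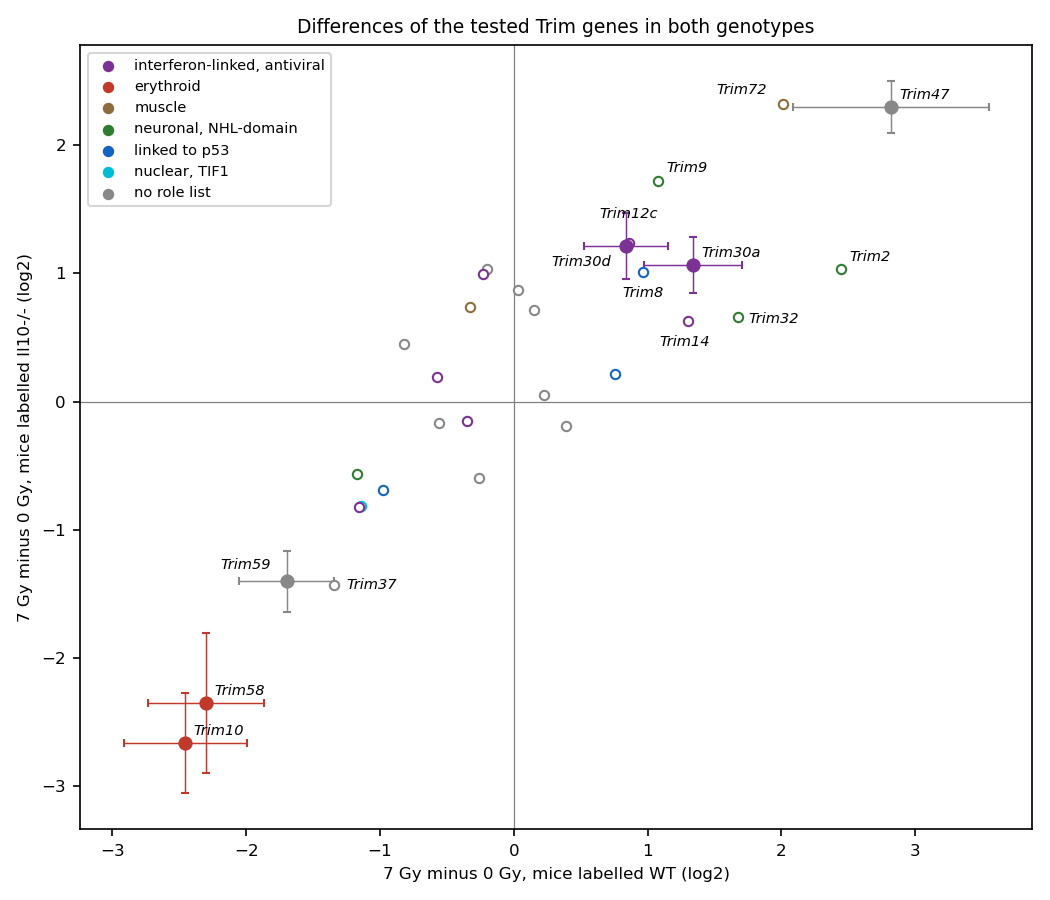
Each point is 1 of the 31 tested Trim genes, placed by its difference between 7 Gy and 0 Gy in mice labelled WT (x axis, log2) and Il10-/- (y axis, log2), with colour for the role list and filled points with SE bars for the 6 genes called in either genotype. Trim10, Trim58 and Trim59 lie at the lower left and Trim47, Trim30a and Trim30d at the upper right. Trim32 is in 2 lists and is drawn as neuronal.

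The Trim genes of red cell maturation had the largest differences among the genes called as lower. Trim10, needed for terminal erythroid differentiation, is read by a probe on mm9 chr17:37014159-37014218. In WT 0 Gy its 5 arrays read 10.48, 10.79, 11.21, 12.62 and 11.81, and in WT 7 Gy 8.28, 8.55, 9.74, 9.62 and 8.44. In Il10-/- 0 Gy they read 11.37, 11.55, 10.90, 9.83 and 11.24, and in Il10-/- 7 Gy 7.47, 7.82, 8.93, 8.35 and 8.97. Every irradiated array was below every unirradiated array of its genotype. Trim10 fell by 2.46 ± 0.46 (SE, log2) in mice labelled WT, a 5.49-fold decrease (limma adjusted p = 0.0035). It fell by 2.67 ± 0.39 in mice labelled Il10-/-, a 6.35-fold decrease (limma adjusted p = 8.9e-04). It was lower on 5 of 5 slides in each genotype, and without irradiated replicates 1 and 2 its difference in mice labelled WT was -2.12 and not called.

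Trim58, which acts on the motor dynein when erythroblasts lose their nucleus, has its probe on mm9 chr11:58465809-58465868. It read 5.35, 5.83, 6.41, 6.74 and 6.26 in WT 0 Gy and 2.89, 2.85, 4.56, 4.40 and 4.38 in WT 7 Gy. It read 6.39, 6.60, 5.49, 5.63 and 7.51 in Il10-/- 0 Gy and 2.22, 3.83, 5.27, 3.97 and 4.58 in Il10-/- 7 Gy. Groups did not overlap, and only 2 of the 5 irradiated arrays of each genotype were well above background, so the irradiated means are uncertain. Trim58 fell by 2.30 ± 0.43 in mice labelled WT (limma adjusted p = 0.0036), and without irradiated replicates 1 and 2 the difference was -1.67 and not called. In mice labelled Il10-/- the difference was -2.35 ± 0.55, which missed the p threshold (limma adjusted p = 0.0097), and without Il10-/- 7 Gy replicate 3 it was -2.68 and called.

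Erythroid marker genes moved beside both. Of 9 tested erythroid markers, 4 were called lower in mice labelled WT and 5 in mice labelled Il10-/-, and none higher. Their mean level ranged from 11.24 to 12.91 in WT 0 Gy, 9.88 to 11.19 in WT 7 Gy, 10.93 to 12.17 in Il10-/- 0 Gy and 9.79 to 10.80 in Il10-/- 7 Gy, so the ranges of the doses did not overlap in either genotype. The part of red cell precursors in the Trim10 and Trim58 values was not tested.

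Trim59, a membrane-anchored member of the family, was the third gene called lower. It read 10.36, 10.28, 10.26, 11.21 and 10.16 in WT 0 Gy and 8.09, 8.20, 9.26, 9.49 and 8.73 in WT 7 Gy. It read 9.61, 9.53, 9.70, 9.42 and 10.07 in Il10-/- 0 Gy and 7.90, 7.91, 8.53, 8.17 and 8.81 in Il10-/- 7 Gy. The irradiated arrays were the lower ones without overlap in either genotype. Trim59 fell by 1.70 ± 0.35 in mice labelled WT, a 3.24-fold decrease (limma adjusted p = 0.0056). The decrease in mice labelled Il10-/- was 2.65-fold, with a log2 difference of -1.40 ± 0.24 (limma adjusted p = 0.0020). Its other probe gave -1.70 and -1.42 and was also called in both. The call in mice labelled WT was lost without WT 0 Gy replicate 1, 2 or 4 or WT 7 Gy replicate 1, 2 or 5, with differences of -1.51 to -1.74. Without irradiated replicates 1 and 2 together the differences were -1.29 and -1.16 and neither was called. B-cell markers, of which 8 of 9 tested were called lower in each genotype, moved in the same direction. Of 9 tested erythroid markers, 4 and 5 were also called lower, and 2 of 7 T-cell markers in each genotype. In each group, the array with the highest Trim59 value also had the highest erythroid marker level (12.91, 11.19, 12.17 and 10.80 in the order above). Its B-cell marker level (9.18, 6.77, 8.54 and 5.85) was the lowest of the group except in WT 7 Gy. The part of any of these cell types in the Trim59 values was not tested.

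**Figure D3:**
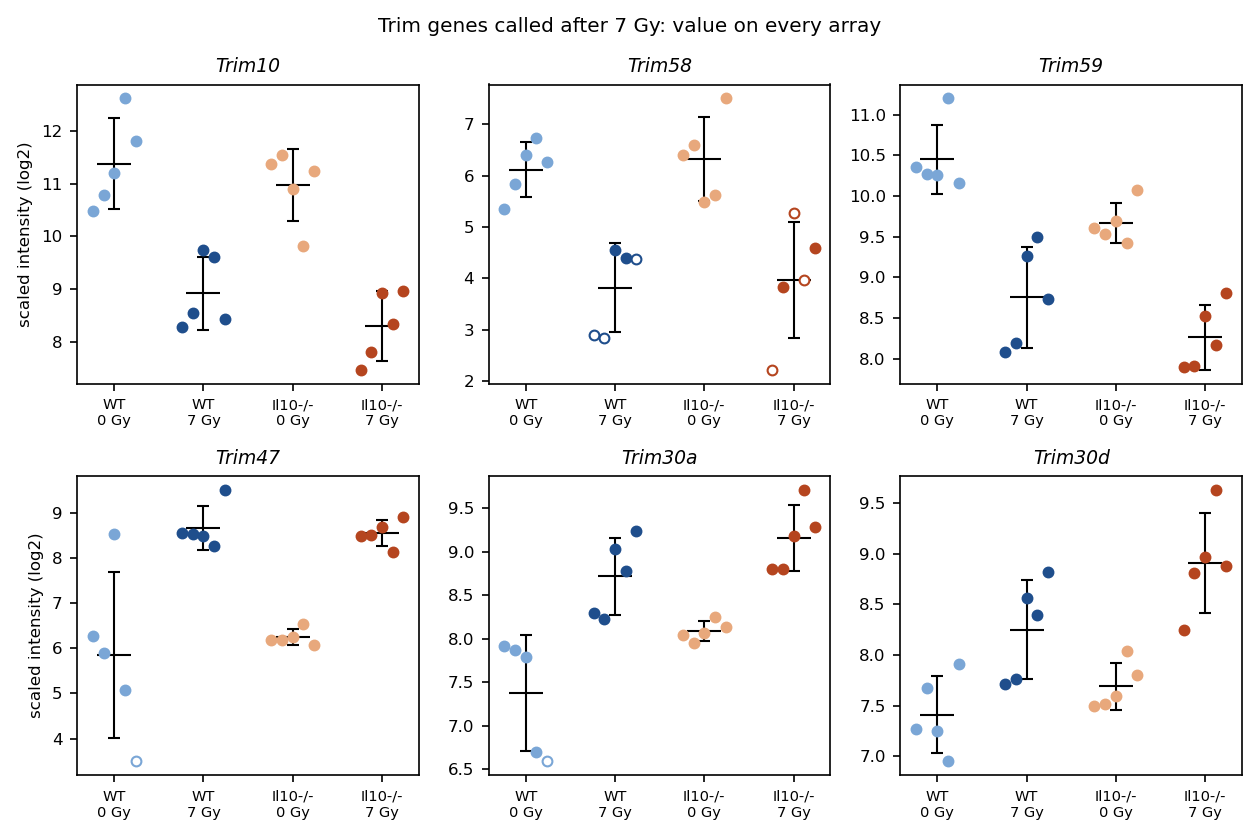
Scaled log2 intensity of the 6 called Trim genes on each of the 5 arrays of each group (points, in replicate order within a group), with the group mean and SD as bars. Open points are arrays on which the probe was not well above background. In WT 0 Gy, Trim47 has 1 array at 8.54, within the range of the irradiated arrays.

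Trim47, a ubiquitin ligase first described in brain tumors, had the smallest adjusted p of the family. Its probe lies on mm9 chr11:115967068-115967127. In Il10-/- 0 Gy it read 6.18, 6.19, 6.26, 6.54 and 6.07, and in Il10-/- 7 Gy 8.49, 8.52, 8.68, 8.13 and 8.92. The irradiated arrays were all higher, with little spread in either group. Trim47 rose by 2.30 ± 0.20 (SE, log2) in mice labelled Il10-/-, a 4.92-fold increase (limma adjusted p = 4.6e-05).

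In mice labelled WT, the 0 Gy arrays of Trim47 read 6.27, 5.89, 8.54, 5.07 and 3.50 and the 7 Gy arrays 8.55, 8.53, 8.49, 8.27 and 9.51. The irradiated array was higher on 4 of 5 slides. Replicate 3 at 0 Gy lay among the irradiated arrays, and replicate 5, the array with the fewest spots above background, was not well above background. The difference was 2.82 ± 0.73 and missed the p threshold (limma adjusted p = 0.016). Without WT 0 Gy replicate 3 it was 3.49 and called. The other Trim47 probe, which lies beside the first, gave 3.36 in mice labelled WT and 2.32 in mice labelled Il10-/- and was called in both.

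The interferon-linked and antiviral Trim genes were the largest group, with 14 genes on the array and 8 tested. None was called in mice labelled WT and 2 were called higher in mice labelled Il10-/-, where 5.7% of all features were called higher. Over the 14 genes, all of which passed the background filter, the median difference was -0.08 in mice labelled WT and 0.27 in mice labelled Il10-/-, beside -0.04 and 0.03 over all 22997 features that passed it. Differences varied within the group, for example -0.15 for Trim34a and 1.22 for Trim30d in mice labelled Il10-/-, both well above background on all 10 arrays of these mice.

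The RefSeq promoters of the chromosome 7 cluster are shown here because both called genes of this group, Trim30a and Trim30d, lie in it and share a motif with their relatives Trim12a, Trim12c and Trim34a, of which the first and second are shown with them. The listed promoters of Trim6, Trim30b and Trim34b, in the same cluster, do not hold it. The cluster spans chr7:104218795-104535361 in GRCm38.p6, about 317 kb, with 11 annotated genes, of which 9 were on the array. The motif searched was the core of the interferon-stimulated response element, GAAA, any 2 bases and GAAA, on either strand, and it cannot contain the other short motif searched (AGATAA). Of the 66 members, 50 had a promoter in the table (250 bases before to 50 after a start site). The motif was in 7 of 13 interferon-linked genes with a promoter (53.8%), in 1 of 37 other members (2.70%) and in 1079 of all 27025 genes (3.99%). The 7 genes are Trim21 and Trim26 and, from this cluster of related genes, Trim12a, Trim12c, Trim30a, Trim30d and Trim34a. They therefore do not count as independent genes. A match describes letters and is not a site. Capitals mark the match, which reads TTTC, 2 bases and TTTC on the gene's strand, and all 4 genes are on the minus strand.
Trim30a, chr7:104465144-104465443: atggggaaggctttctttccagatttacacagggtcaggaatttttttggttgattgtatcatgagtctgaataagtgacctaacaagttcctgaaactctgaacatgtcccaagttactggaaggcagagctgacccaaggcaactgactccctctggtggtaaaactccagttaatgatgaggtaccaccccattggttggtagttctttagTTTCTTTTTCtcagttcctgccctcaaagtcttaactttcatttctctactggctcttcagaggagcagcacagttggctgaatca
Trim30d, chr7:104507800-104508099: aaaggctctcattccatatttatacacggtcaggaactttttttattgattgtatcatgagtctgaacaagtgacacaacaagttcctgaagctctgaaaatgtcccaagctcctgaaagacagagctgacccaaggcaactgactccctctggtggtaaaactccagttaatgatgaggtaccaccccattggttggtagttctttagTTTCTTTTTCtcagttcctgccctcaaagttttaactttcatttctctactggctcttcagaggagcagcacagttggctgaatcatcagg
Trim12a, chr7:104315446-104315745: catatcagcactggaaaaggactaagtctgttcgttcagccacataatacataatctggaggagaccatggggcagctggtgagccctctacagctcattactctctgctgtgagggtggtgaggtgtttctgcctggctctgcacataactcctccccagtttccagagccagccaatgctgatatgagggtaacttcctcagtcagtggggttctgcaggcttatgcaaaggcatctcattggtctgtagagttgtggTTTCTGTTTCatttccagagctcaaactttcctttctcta
Trim12c, chr7:104353300-104353599: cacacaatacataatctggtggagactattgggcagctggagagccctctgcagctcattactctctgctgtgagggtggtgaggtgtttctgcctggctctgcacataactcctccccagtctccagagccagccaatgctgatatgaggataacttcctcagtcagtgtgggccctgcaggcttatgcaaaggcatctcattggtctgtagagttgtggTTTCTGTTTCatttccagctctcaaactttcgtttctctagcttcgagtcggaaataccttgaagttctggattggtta
The match is TTTCTTTTTC in Trim30a and Trim30d and TTTCTGTTTC in Trim12a and Trim12c. It begins at position -36 from the start site in Trim30a, -41 in Trim30d and -29 in Trim12c, and at position 11 in Trim12a. For Trim30a, the further upstream of its 2 listed promoters is shown, and the other one holds the match too.

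Trim30a, which restrains NF-kappaB signaling downstream of Toll-like receptors, is read by a probe on mm9 chr7:111557578-111557637. It read 7.91, 7.88, 7.79, 6.70 and 6.59 in WT 0 Gy and 8.30, 8.23, 9.03, 8.77 and 9.24 in WT 7 Gy. It read 8.05, 7.96, 8.07, 8.26 and 8.13 in Il10-/- 0 Gy and 8.80, 8.80, 9.18, 9.71 and 9.29 in Il10-/- 7 Gy. All irradiated arrays were above all unirradiated arrays of their genotype, and so on 5 of 5 slides. Trim30a rose by 1.07 ± 0.22 in mice labelled Il10-/-, a 2.09-fold increase (limma adjusted p = 0.0052). In mice labelled WT the difference was 1.34 ± 0.37 and missed the p threshold (limma adjusted p = 0.020).

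Trim30d, its neighbor in the cluster, has a probe on mm9 chr7:111620805-111620864. It read 7.27, 7.67, 7.24, 6.95 and 7.91 in WT 0 Gy and 7.71, 7.76, 8.56, 8.39 and 8.81 in WT 7 Gy. It read 7.50, 7.52, 7.60, 8.04 and 7.80 in Il10-/- 0 Gy and 8.25, 8.81, 8.97, 9.63 and 8.88 in Il10-/- 7 Gy. The doses overlapped in mice labelled WT and did not in mice labelled Il10-/-. Within slides, which hold 1 array of each group, the irradiated array was higher on 5 of 5 slides in both genotypes, by 0.09 to 1.44 in WT and 0.75 to 1.59 in Il10-/-. Trim30d rose by 1.22 ± 0.26 in mice labelled Il10-/-, a 2.33-fold increase (limma adjusted p = 0.0063). In mice labelled WT the difference was 0.84 ± 0.32 (limma adjusted p = 0.072).

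With each array of these mice left out in turn, Trim30a kept its call in 5 of 10 fits and Trim30d in 3 of 10, with differences of 0.93 to 1.16 and 1.04 to 1.38. Both were lost without Il10-/- 0 Gy replicate 1, 2 or 3 or Il10-/- 7 Gy replicate 3 or 5 (1.03 to 1.06 and 1.17 to 1.23), and Trim30d also without Il10-/- 0 Gy replicate 5 (1.25) or Il10-/- 7 Gy replicate 2 (1.24). Neither was called with replicates 1 and 2 averaged or with each array scaled to its own median. No member probe shared 15 or more consecutive bases with a probe of another Trim gene. Matches to other transcripts were not analysed here, so signal from near-identical relatives in the cluster cannot be told apart.

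Of the other interferon-linked genes, Trim14, an adaptor in antiviral signaling at mitochondria, had the largest difference in mice labelled WT, and Trim12c in mice labelled Il10-/-. The brightest Trim12c probe differed by 0.86 ± 0.31 in mice labelled WT and 1.24 ± 0.30 in mice labelled Il10-/- (limma adjusted p = 0.062 and 0.012), while its other probes gave -0.47 and -0.22 in mice labelled WT, so no direction is given for the gene there. Trim14 differed by 1.31 ± 0.47 and 0.63 ± 0.20 (limma adjusted p = 0.063 and 0.039). Neither gene was called. In WT 0 Gy replicate 5, Trim14 read 4.62 and was not well above background, against 6.45 to 7.28 on the other arrays of that group. With each array left out in turn, its difference in mice labelled WT was as low as 0.83. Trim38, a brake on Toll-like receptor signaling, gave -1.16 in mice labelled WT and was not called either. In mice labelled Il10-/- it was well above background on 3 of 5 arrays at 0 Gy and 0 of 5 at 7 Gy, so no difference is given. Of 17 tested interferon signaling genes outside the family, 9 were called higher in mice labelled WT and 11 in mice labelled Il10-/-, and their mean level ranged from 7.72 to 8.36 in WT 0 Gy, 9.0 to 9.37 in WT 7 Gy, 8.26 to 8.47 in Il10-/- 0 Gy and 9.16 to 9.51 in Il10-/- 7 Gy.

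Trim25 gave opposite directions from its 2 probes, so no direction is given for the gene. The brighter probe, on mm9 chr11:88881521-88881580, differed by 0.35 in mice labelled WT and 0.34 in mice labelled Il10-/- and did not pass the 1.5-fold filter. The other probe gave -1.16 in mice labelled WT, which was not called, and -1.01 in mice labelled Il10-/-, which was called lower (limma adjusted p = 0.0039). Its position in the array file runs over chr11:88874956-88881181, far more than the 60 bases of a probe. The last 30 bases of each are shown because they differ in kind.
Trim25 brighter probe: tctttatttgactgcttctgattctttttc
Trim25 other probe: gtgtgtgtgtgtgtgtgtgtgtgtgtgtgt
The second probe ends in an unbroken repeat of GT, with a run of 30 bases, against 4 in the first. Whether that probe reads Trim25 alone was not tested. Trim12c also differed by probe, at 1.24 for the brightest and 0.16 and 0.11 for the others in mice labelled Il10-/-, and at 0.86 against -0.47 and -0.22 in mice labelled WT.

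**Figure D4:**
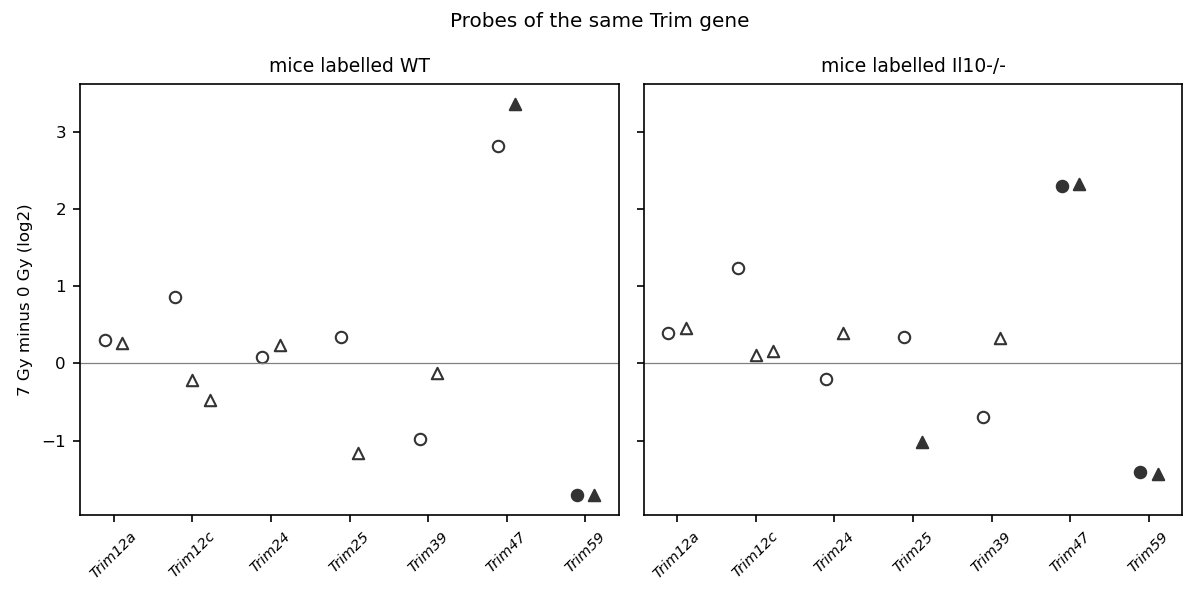
Difference between 7 Gy and 0 Gy (y axis, log2) for each probe of 7 Trim genes with several probes, chosen after their values were seen, in mice labelled WT (left) and Il10-/- (right). Circles are the probes used for the gene, triangles its other probes, and filled symbols were called. The probes of Trim47 and Trim59 lie close together, and those of Trim25 lie on opposite sides of 0.

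The Trim genes linked to p53 were 6 genes, of which 4 were tested and none was called. Trim8, which stabilizes p53, came nearest. It read 8.84, 8.94, 8.56, 8.56 and 8.21 in WT 0 Gy and 9.44, 9.31, 9.50, 9.71 and 9.97 in WT 7 Gy, and in mice labelled Il10-/- 9.51, 9.37, 8.59, 8.84 and 9.34 at 0 Gy and 9.78 to 10.63 at 7 Gy. The doses did not overlap in either genotype. The difference was 0.97 ± 0.26 and 1.01 ± 0.25 (limma adjusted p = 0.019 and 0.013). Trim32 differed by 1.68 and 0.66 and Trim39 by -0.98 and -0.69, and the other Trim39 probe gave -0.12 and 0.33. In WT 0 Gy, Trim32 was well above background on 3 of 5 arrays (5.03 to 5.40). It read 2.52 and 3.36 on the others, against 5.66 to 6.32 in WT 7 Gy, so the difference of 1.68 is uncertain. Beside this, 7 and 8 of 8 tested p53 target genes outside the family were called higher.

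Among neuronal and NHL-domain Trim genes, 4 of 8 were tested and none was called. Trim9, which shapes axon branching, differed by 1.08 ± 0.29 in mice labelled WT and 1.72 ± 0.40 in mice labelled Il10-/- (limma adjusted p = 0.020 and 0.0099), without overlap of the doses. It was well above background on 2 of 5 and 5 of 5 arrays in WT at 0 Gy and 7 Gy, and on 4 of 5 and 3 of 5 in Il10-/-. Trim2, a ligase for neurofilament light chain, differed by 2.45 ± 0.60 in mice labelled WT and 1.03 ± 0.68 in mice labelled Il10-/- (limma adjusted p = 0.012 and 0.30). Trim2 was well above background on 1 of 5 and 3 of 5 arrays in WT at 0 Gy and 7 Gy, and on 4 of 5 and 3 of 5 in Il10-/-. The size of the WT difference is therefore uncertain. Its 7 Gy arrays read 6.86, 6.93, 5.40, 3.87 and 4.09 in WT, and the highest 3 were those with the highest heart muscle and liver marker levels of that group. In Il10-/- 0 Gy, Trim2 was highest on replicates 4 and 3 (6.07 and 4.48), where liver markers stood at 12.77 and 11.84 and heart muscle markers at 4.27 and 4.09. In Il10-/- 7 Gy, Trim2 read 5.41, 5.43, 6.26, 3.63 and 4.05 in replicate order. On these arrays liver markers stood at 12.87, 12.89, 5.49, 11.49 and 8.30, and heart muscle markers at 10.74, 10.73, 8.86, 8.91 and 5.62. Replicate 3, the highest for Trim2, had the lowest liver marker level of the group. Replicates 1 and 2, the next highest for Trim2, had the highest liver marker levels. The part of either in the Trim2 values was not tested.

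Of the nuclear Trim genes, Trim33, a regulator of SMAD signaling, was the only one tested and was not called, with differences of -1.14 and -0.82. Trim28 gave -0.57 and -0.34 and did not pass the 1.5-fold filter. Trim37, in no role list and named after its values were seen, gave -1.35 and -1.43 and was not called. It was well above background on 5 of 5 arrays of Il10-/- 0 Gy and 0 of 5 of Il10-/- 7 Gy, where it was at least 1.18-fold lower.

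The muscle Trim genes, where seen at all, were seen on irradiated arrays. Trim72, which helps to reseal torn muscle membranes, was well above background on 3 of 5 arrays in WT 7 Gy and 2 of 5 in Il10-/- 7 Gy, and on 0 of 10 unirradiated arrays. It read 6.39, 6.26, 4.24, 2.81 and 2.23 in WT 7 Gy and 5.90, 5.80, 3.72, 3.17 and 2.78 in Il10-/- 7 Gy, against 1.46 to 3.55 without irradiation. Replicates 1 and 2 were high in both groups, and the doses overlapped. With the bright group's mean set against the lowest signal well above background, Trim72 was at least 1.62-fold higher in WT 7 Gy and at least 2.65-fold higher in Il10-/- 7 Gy, and neither difference was called (limma adjusted p = 0.081 and 0.023).

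Trim63 and Trim54, muscle ligases also known as MuRF1 and MuRF3, were well above background on replicates 1 and 2 of both irradiated groups and on no other array. Trim54 read 5.12 and 5.20 on these arrays in WT 7 Gy and 5.17 and 5.72 in Il10-/- 7 Gy, and 0.26 to 3.50 elsewhere. Trim55 was not well above background on any array. The mean of 7 heart muscle markers was 11.10, 10.94, 8.14, 4.41 and 4.63 in WT 7 Gy and 10.74, 10.73, 8.86, 8.91 and 5.62 in Il10-/- 7 Gy, against 3.72 to 7.13 in the unirradiated groups. The 4 arrays on which Trim54 and Trim63 were seen had the highest heart marker levels of the 20, and also the highest liver marker levels (12.87 to 14.73). Trim72 was also seen on WT 7 Gy replicate 3, where the heart markers stood at 8.14, and not on Il10-/- 7 Gy replicates 3 and 4, at 8.86 and 8.91. The part of heart or liver RNA in these values was not tested.

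**Figure D5:**
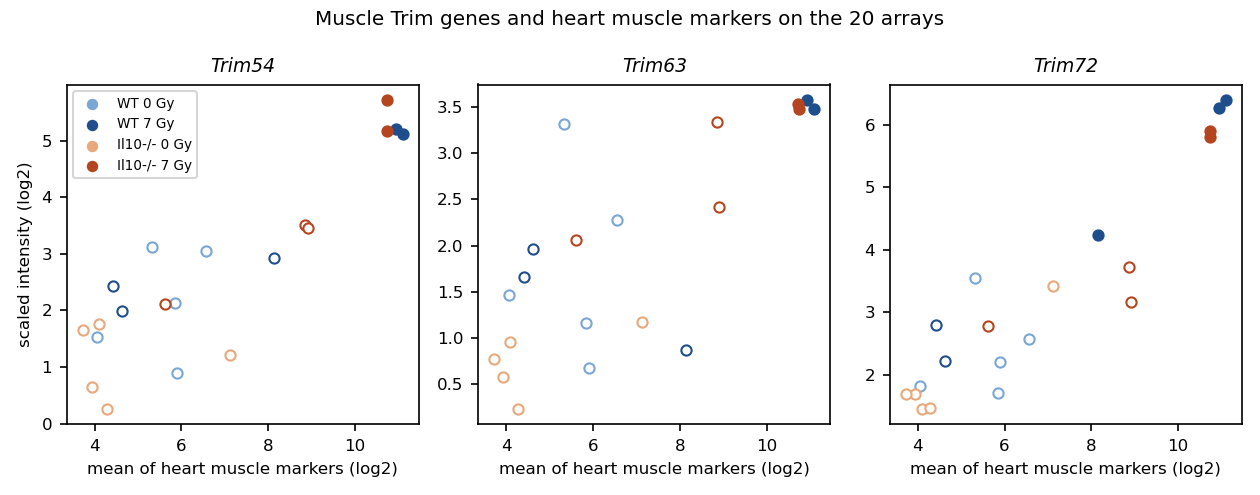
Scaled log2 intensity (y axis) of 3 muscle Trim genes against the mean log2 intensity of 7 heart muscle markers (x axis) on the 20 arrays, coloured by group. Filled points are well above background. The 4 arrays at the upper right of each panel are replicates 1 and 2 of both irradiated groups.

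The genotypes were compared at each dose. At 0 Gy, 0 of 31 tested Trim genes were called by limma, where 0.491% of all features were called, and 4 had an unadjusted p below 0.05, where 19.5% of all features did. These were Trim30a (0.72 ± 0.33 higher in mice labelled Il10-/-), Trim59 (-0.78 ± 0.28), Trim38 (-1.38 ± 0.60) and Trim6, which was not well above background on any array and is given no value. The limma adjusted p was 0.25 for Trim30a, 0.19 for Trim59 and 0.24 for Trim38. Trim30a and Trim59 did not overlap between the genotypes, which held for 5.01% of all features in the higher and 1.68% in the lower direction.

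At 7 Gy, 0 of 31 were called by limma, where 0.0182% of all features were called, and 3 had an unadjusted p below 0.05, where 13.3% of all features did. These were Trim12c (0.80 ± 0.33), Trim30b (1.29 ± 0.49) and Trim8 (0.55 ± 0.23), all higher in mice labelled Il10-/-, with limma adjusted p of 0.34, 0.31 and 0.34. Trim12a, which did not pass the 1.5-fold filter, read 9.81 to 10.57 in Il10-/- 7 Gy and 9.32 to 9.71 in WT 7 Gy, without overlap, which held for 3.93% of all features in the higher direction. Trim30a and Trim30d, which overlapped between the genotypes at 7 Gy and were not called, were higher in mice labelled Il10-/- on 5 of 5 slides, by 0.05 to 0.94 and 0.06 to 1.24. The share of all features that were higher on every slide is not given here, so these counts have nothing to be read against.

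The radiation responses of the genotypes were compared directly through the interaction of dose and genotype, fitted in limma with the 4 groups together. There, 0 of 31 Trim genes were called, 0% of all features were called, and 0 Trim genes had an unadjusted p below 0.05, where 7.47% of all features did. For the 6 genes called in either genotype, the Il10-/- response minus the WT response was -0.21 ± 0.62 for Trim10, -0.05 ± 0.73 for Trim58, 0.29 ± 0.42 for Trim59, -0.52 ± 0.80 for Trim47, -0.28 ± 0.42 for Trim30a and 0.38 ± 0.40 for Trim30d. The calls of Trim30a, Trim30d and Trim47 in one genotype and not the other are not shown to differ between genotypes, and these errors leave room for differences in either direction.

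Motifs of the other called genes were also searched in the RefSeq promoters. AGATAA on either strand, the core of GATA factor sites, was in 4 of 50 members and 12.7% of all genes, and the promoter of Trim10 holds it, in capitals, as TTATCT at positions -163 to -158.
Trim10, chr17:36869324-36869623, plus strand: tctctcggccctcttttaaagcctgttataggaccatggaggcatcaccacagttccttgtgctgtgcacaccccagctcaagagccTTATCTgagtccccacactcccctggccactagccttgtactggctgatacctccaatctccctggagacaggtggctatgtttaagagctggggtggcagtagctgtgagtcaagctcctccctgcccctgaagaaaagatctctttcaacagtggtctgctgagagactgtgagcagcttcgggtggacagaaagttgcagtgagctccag
The promoter of Trim58 holds no AGATAA. A p53 response element, as paired decamers up to 13 bases apart, was in the promoter of 0 of 50 members and of 20 of all 27025 genes (0.0740%), and Trim8 has no promoter in the table.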

How the data were processed

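Per the file headers, the authors deposited for each array an intensity per spot from Agilent Feature Extraction (10.7 in the methods and the submitters' processing notes, 12.0.2.2 in the headers), background-subtracted and detrended, with probe positions on mm9. They also deposited a log2 table, made in BRB-ArrayTools; its array constants matched the scaling used here within 0.00825, and it served as an alternative. Flags deposited for each spot gave outliers and background.

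Intensities were converted to log2, outlier spots left out, repeated spots averaged, and each array scaled by its median log2 distance from Il10-/- 0 Gy replicate 3. Probes marked on 25% or more of the arrays, or differing by 1.5-fold from their median on under 20%, were removed, leaving 16503 of 39429. Groups came from the sample records. Each comparison of 2 groups used its own 10 arrays in limma 3.58.1 (R 4.3.3 and version 1.17.8 of data.table); Python 3.11.15 with numpy 2.4.6, pandas 2.3.3 and matplotlib 3.10.9 did the rest. Every called member is named with all arrays, and in each role list the members with the largest differences. A "fold at least" bound uses the higher of the dim probe's signal and the lowest signal well above background. Members came from the rule on gene names, and the role lists and marker lists were written with earlier results of these data known. The steps were tested on simulated data. Alternatives covered scaling, background correction, filters, probe choice, thresholds, the replicate block, the fit and each array left out. The number of arrays limits precision.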

Additional observations from a re-analysis of the deposited data

Results flagged for a closer look

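Among 64 sets of 5 arrays (16 named Trim genes in 4 groups), 5 held an array set apart from the others by a gap over 0.71 of the range, and chance gives about 1 in 20. Trim59 read 11.21 in WT 0 Gy replicate 4, with the next array at 10.36. Trim47 read 9.51 in WT 7 Gy replicate 5, with the next at 8.55. Trim14 read 7.55 in Il10-/- 0 Gy replicate 4, with the next at 7.09. Trim32 read 4.73 in Il10-/- 0 Gy replicate 3, with the next at 5.28. Trim72 read 3.42 in Il10-/- 0 Gy replicate 5, with the next at 1.70, and it was not well above background on either array.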

How the results depend on the processing

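In mice labelled WT the 3 calls became 7 with all 4 groups in 1 fit, 13 at a false discovery rate under 5% alone, and 0 without irradiated replicates 1 and 2, an alternative chosen after seeing the data. In mice labelled Il10-/- the 5 calls became 8 with all 4 groups in 1 fit, 12 at a rate under 5% alone and 3 with replicates 1 and 2 averaged. When each array was left out in turn there were 2 to 4 calls in mice labelled WT, 3 to 6 in mice labelled Il10-/- (3 without Il10-/- 0 Gy replicate 1, 2 or 3), and 0 in the other comparisons. Same-numbered arrays share a slide, which the main fits left out. The correlations of their deviations had a mean of 0.414 between the irradiated groups and 0.234 between the WT groups. In each of these pairs of groups, 4 of 5 correlations exceeded 0.1. In the remaining pairs of groups the mean was -0.131 to 0.0749, and in no pair did all 5 exceed 0.1. With the replicate block, 4 Trim genes were called in WT, 5 in Il10-/- and 0 in the genotype comparisons and the interaction. Scaling each array to its own median moved the median difference of all features at 0 Gy from 0.01 to 0.36 between genotypes. It moved that of the Il10-/- response from 0.14 to -0.10 and that of the interaction from 0.08 to -0.20. Under the main scaling, the array median of WT 0 Gy replicate 5 stood 1.12 (log2) above the middle of all array medians. Those of the other arrays lay between -0.22 and 0.30. With normexp background correction only 5 Trim genes could be tested, 4 of them called in Il10-/- and 2 in WT. Over the alternatives that used all arrays, 1 to 216 features were called between genotypes at 0 Gy, against 81. No result changed direction where it was called. The cause of these changes was not tested.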
